A study of Mus musculus with 22 samples.

Results

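The amino acid stress response run by the transcription factor ATF4 was followed in mouse liver through 10 genes taken by symbol: Atf4, Ddit3, Atf5, Asns, Psat1, Phgdh, Chac1, Trib3, Sesn2 and Igfbp1. All 10 symbols matched 1 gene each among the 47729 genes counted. Liver poly(A) RNA came from male C57BL/6 mice that were Slc10a1-/- (KO) or wild type (WT). The deleted gene encodes NTCP, the sodium-coupled importer of bile acids on the blood-facing membrane of hepatocytes. The 22 libraries form 6 groups: at 4 weeks of age 3 KO and 3 WT livers, at 8 weeks 6 KO and 4 WT livers, and at 20 months 3 KO and 3 WT livers. No treatment is recorded, the deletion is not described as limited to a cell type, and all mice are male. The labels number the samples of a group without saying that each is a separate animal, so p-values measure the spread between these samples.

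ATF4 is a bZIP transcription factor whose mRNA is translated when the initiation factor eIF2alpha is phosphorylated by a stress kinase. Amino acid shortage acts through the kinase GCN2, and unfolded protein in the endoplasmic reticulum acts through PERK. ATF4 then binds, with C/EBP family partners, to sites in genes for amino acid synthesis, amino acid uptake and tRNA charging. Because the main control of ATF4 is at translation, the level of Atf4 mRNA is not a measure of ATF4 protein, and no protein was measured here. Among the 10 genes, Ddit3 (CHOP) and Atf5 encode bZIP factors, Asns makes asparagine, Phgdh and Psat1 catalyse successive steps of serine synthesis, and Chac1 degrades glutathione. Trib3 encodes a pseudokinase, Sesn2 a leucine-binding regulator of mTORC1, and Igfbp1 a secreted IGF-binding protein that in liver is also under strong control by insulin through FOXO1.

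The start regions of the 10 genes were read from RefSeq (GRCm38.p6) as windows of 300 bases, 250 before and 50 after the annotated start. The 10 genes had 12 such windows, because Psat1 and Atf5 each had an additional window, and the motifs were searched on both strands. Counts of genes and shares of windows are therefore not the same measure. The element TGATGNAA, the core of the composite site bound by C/EBP and ATF4, was present in the windows of 3 of the 10 genes, Asns, Trib3 and Chac1. It was present in 1304 of 32851 mouse windows of the same length (3.97%). The insulin response motif CAAAACAA was present in the Igfbp1 window and in no other of the 10 genes, against 2.51% of all windows. GTAAACAA, a forkhead motif, and TGACGTCA, the full cAMP response element, were in none of the 12 windows and in 1.23% and 1.79% of all windows. The endoplasmic reticulum stress half-site CCACG was in windows of 8 of the 10 genes and in 32.8% of all windows. No match printed here overlaps a match to another of these motifs. The windows of Asns and Igfbp1, the genes with the largest differences reported here, and the matches in Trib3 and Chac1 with 10 bases on each side are shown 5′ to 3′ on the strand of the gene. Capitals mark the match to TGATGNAA, or in Igfbp1 to CAAAACAA.
Asns: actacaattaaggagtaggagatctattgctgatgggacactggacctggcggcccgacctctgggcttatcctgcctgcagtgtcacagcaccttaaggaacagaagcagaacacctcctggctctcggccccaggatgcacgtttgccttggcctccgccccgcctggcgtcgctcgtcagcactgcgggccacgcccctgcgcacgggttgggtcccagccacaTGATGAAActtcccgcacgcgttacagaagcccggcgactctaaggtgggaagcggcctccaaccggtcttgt
Igfbp1: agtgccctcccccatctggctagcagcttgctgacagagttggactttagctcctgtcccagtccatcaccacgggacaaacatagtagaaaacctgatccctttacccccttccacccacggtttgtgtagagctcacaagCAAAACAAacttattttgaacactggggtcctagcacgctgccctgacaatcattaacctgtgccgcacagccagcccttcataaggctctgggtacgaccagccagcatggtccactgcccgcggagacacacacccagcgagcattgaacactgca
Trib3: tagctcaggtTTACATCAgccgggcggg
Chac1: ttccctgccgTTGCATCActcctgccag
The Asns window is chr6:7693160-7693459 on the minus strand, and its match starts at position -23 from the annotated start. The Igfbp1 window is chr11:7197537-7197836 on the plus strand, with its match at -108. The Trib3 window is chr2:152344011-152344310 on the minus strand, and the match, read on the opposite strand, begins at position 15 after the start. The Chac1 window is chr2:119350992-119351291 on the plus strand, and its match, also on the opposite strand, begins at -193. A match describes the letters of the window and shows neither binding nor a cause.

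The 4-week libraries were the shallowest, with gene counts of 5496425 to 6956124 each. Those of 8 weeks held 18950112 to 26066897 counts, and those of 20 months 18032355 to 26789350. Levels are given in CPM, the read count scaled to library size with TMM factors over the 22 libraries. Where a gene had no count, its level could still be up to 3 counts, which is 0.482 to 0.665 CPM at 4 weeks and 0.102 to 0.166 CPM at the later ages, for counting error only. Slc10a1 itself was 112 to 264 CPM in KO livers against 605 to 711 CPM in WT livers at 4 weeks, 49.2 to 93.4 against 432 to 464 CPM at 8 weeks, and 90.6 to 103 against 152 to 365 CPM at 20 months, so every KO library lay below every WT library of its age. Which exons are deleted is not given in the sources used here. Albumin was 23998 CPM or more in every library, and the pancreatic acinar markers summed to at most 37.6 CPM, with Prss2 at 0 in all 22 libraries.

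Igfbp1 was the most abundant of the 10 genes per kilobase of exon, at a mean of 831 CPM per kb over the 22 libraries. Atf5 followed at 99.7 and Atf4 at 40.7 CPM per kb. Asns, Ddit3, Trib3, Chac1 and Sesn2 lay between 2.77 and 4.96 CPM per kb. The serine synthesis genes were the lowest, with Psat1 at 0.627 and Phgdh at 0.154 CPM per kb. Atf4 lies on chromosome 15, Asns on chromosome 6 and Igfbp1 on chromosome 11, and none of these 3 overlaps another annotated gene in GENCODE M21 (GRCm38). Ddit3 overlaps Mars, Psat1 a pseudogene, Sesn2 an antisense transcript, and Atf5 the genes Nup62 and Il4i1. The strand setting of the counting is not given in the sources used here, so reads of these 4 genes and their partners cannot be told apart with certainty.

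**Figure D1:**
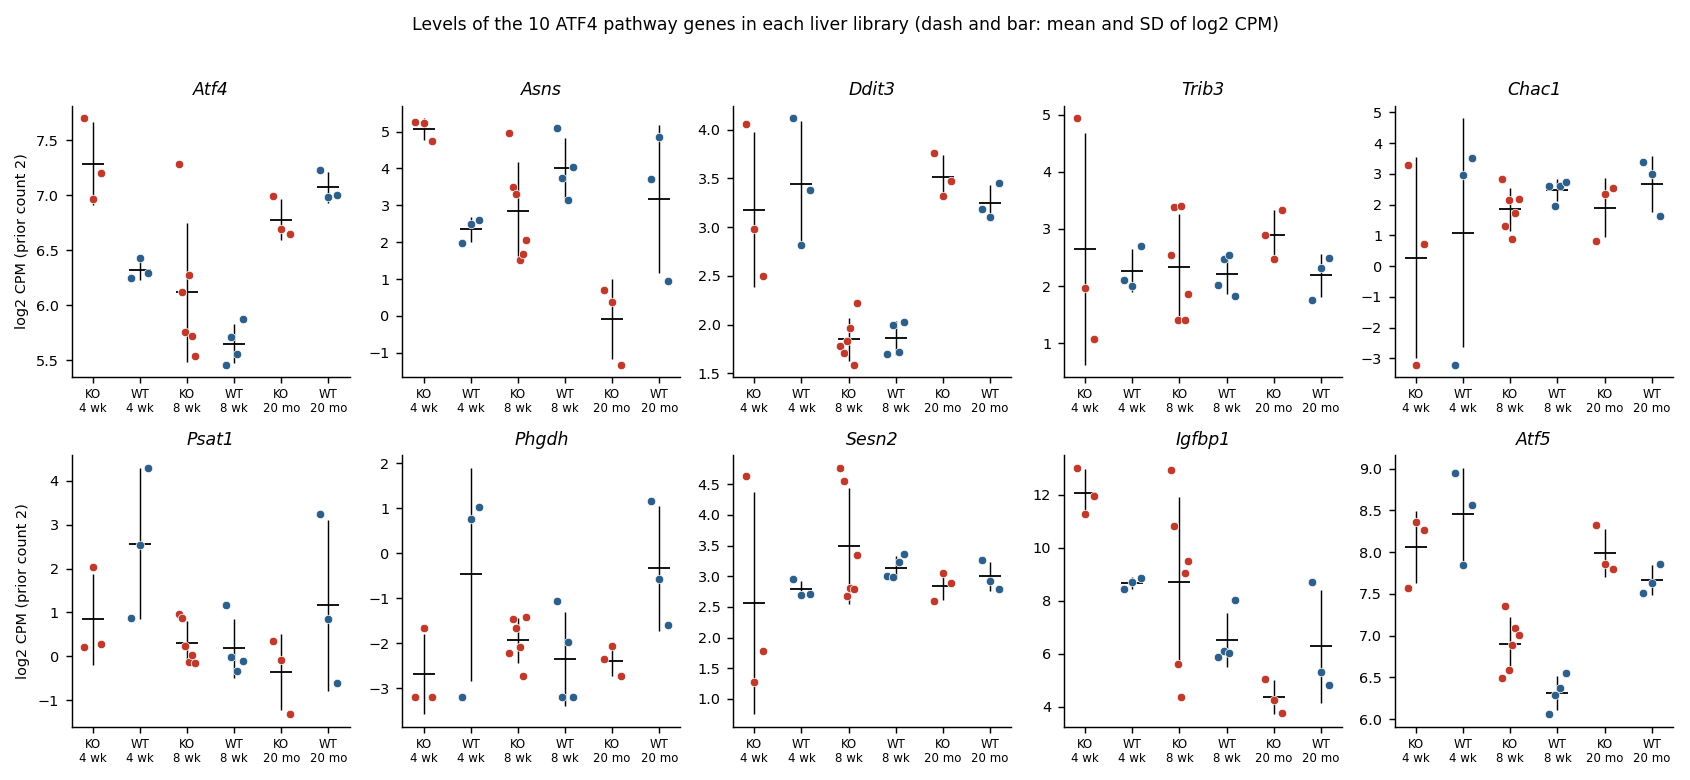
Level of each gene in each library on the log2 CPM scale (prior count 2), 1 panel per gene, with KO livers in red left of WT livers in blue at 4 weeks, 8 weeks and 20 months. The dash and bar are the mean and SD of the group. At 4 weeks the 3 KO livers lie above the 3 WT livers for Atf4, Asns and Igfbp1, and at 8 weeks Igfbp1 spreads in KO livers between 20.5 and 7824 CPM.

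When the 6 groups were ordered by mean CPM, neighbours in the order usually overlapped: 45 of the 50 neighbouring pairs over the 10 genes did. Atf4 was highest in KO livers at 4 weeks, then in the 20-month groups, then in WT livers at 4 weeks, and lowest at 8 weeks. Its only break was between the 20-month KO livers and the 4-week WT livers. Asns was highest in KO livers at 4 weeks and lowest in KO livers at 20 months, with the break just above that lowest group. Igfbp1 had the same highest and lowest groups and the same break, with the 8-week WT livers next above the 20-month KO livers.

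At 4 weeks, 3 of the 10 genes were higher in KO than in WT livers: Atf4 by 1.00, Asns by 2.74 and Igfbp1 by 3.58 on the log2 scale, which is 6.67-fold for Asns. None of the 10 was called lower. Phgdh was below the filter on low counts, so 9 were tested, and of these 3 were called higher and 0 lower (edgeR's quasi-likelihood test, Benjamini-Hochberg adjusted p under 0.05 over all genes). By unadjusted p under 0.05 the count was 4, beside 29.1% of all genes, and DESeq2 also called 3, beside 11.5% of all genes. Of all 11144 genes tested at 4 weeks 5.17% were called higher and 5.60% lower. The median log2 fold change was 0.60 over the 9 genes and 0.01 over all genes tested. Livers are mixtures of cells, and a change in the number of cells of a type cannot be told apart from a change in RNA per cell.

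Atf4 read 208, 125 and 147 CPM in the 3 KO livers at 4 weeks, against 75.8, 85.9 and 78.3 CPM in the 3 WT livers. The lowest KO liver stood above the highest WT liver. The log2 fold change was 1.00 (SE 0.23, edgeR adjusted p = 0.0294). This call was the least stable of the 3: the log2 fold change stayed between 0.78 and 1.17 when any 1 library was left out, but the adjusted p was 0.0626 without KO library 3 and 0.0817, 0.111 and 0.128 without WT library 1, 2 or 3.

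Asns, which encodes asparagine synthetase and carries the TGATGAAA element shown above, read 38.2, 37.3 and 26.6 CPM in KO livers, against 3.81, 5.52 and 5.95 CPM in WT livers. The groups were far apart and each was narrow. The log2 fold change was 2.74 (SE 0.26, edgeR adjusted p = 0.000883), and the call held when any 1 of the 6 libraries was left out. Igfbp1 read 8239.9, 2447 and 3981 CPM in KO livers, against 344, 418 and 468 CPM in WT livers. Every KO liver was above every WT liver, and the KO livers differed among themselves by 3.37-fold. The log2 fold change was 3.58 (SE 0.46, edgeR adjusted p = 0.00434), also called without any 1 library.

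All 3 of these genes had KO and WT ranges that did not overlap, with KO higher, as did 16.9% of all genes tested at 4 weeks. In 1 fit of all 22 libraries, which shares 1 estimate of spread over the 6 groups, the log2 fold changes were again 1.00, 2.74 and 3.58 and none of the 3 passed. The edgeR adjusted p was then 0.0519 for Atf4, 0.0578 for Asns and 0.118 for Igfbp1. Of the 15877 genes tested in that fit 11.1% were called in either direction.

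**Figure D2:**
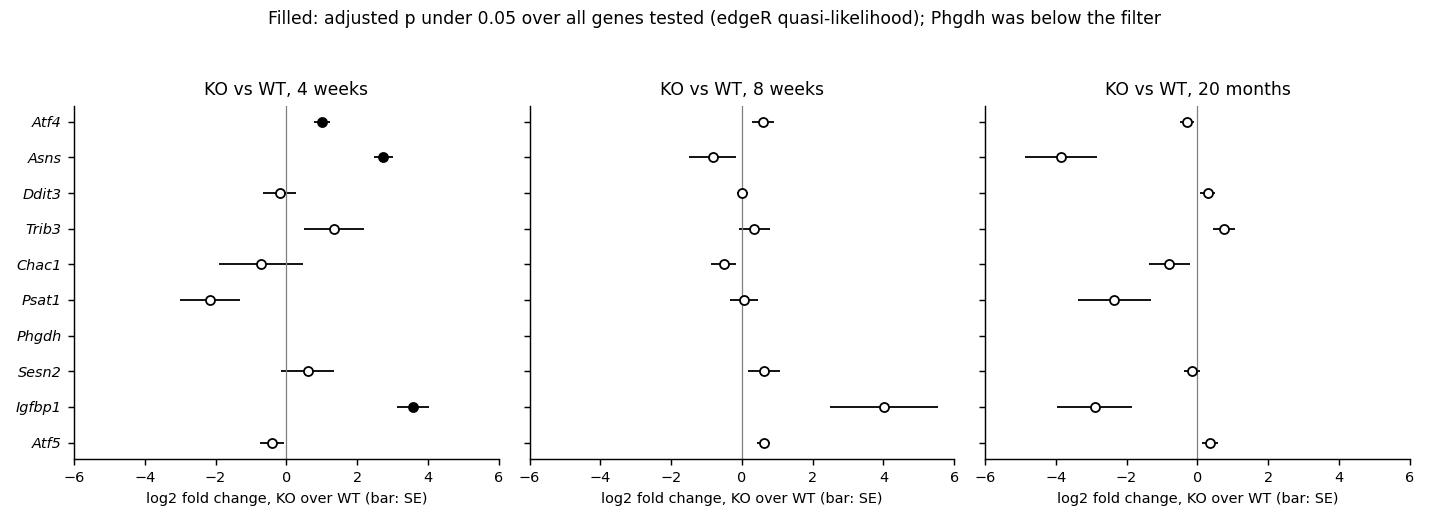
Log2 fold change of KO over WT with its SE for each gene at 4 weeks, 8 weeks and 20 months; filled circles passed an adjusted p of 0.05 over all genes tested. Only Atf4, Asns and Igfbp1 at 4 weeks are filled, and the Asns and Igfbp1 estimates lie right of 0 at 4 weeks and left of it at 20 months.

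The other bZIP genes did not pass at 4 weeks. Ddit3 read 16.6, 7.76 and 5.54 CPM in KO livers against 17.3, 6.94 and 10.3 CPM in WT livers. Atf5 read 189, 329 and 308 CPM in KO livers against 495, 231 and 377 CPM in WT livers. The groups overlapped for both genes, with log2 fold changes of -0.19 (SE 0.46) and -0.41 (SE 0.33), and the Ddit3 values differed more within each genotype than between the genotypes.

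The serine synthesis genes pointed the other way from Asns, without passing. Psat1 read 1.05, 3.98 and 1.11 CPM in KO livers against 1.71, 5.69 and 19.6 CPM in WT livers (log2 fold change -2.15, SE 0.85, edgeR adjusted p = 0.135). WT library 3 was far above the rest, and the groups overlapped. Phgdh had 1 count over the 3 KO livers and 21 over the 3 WT livers, with 0 in 2 KO livers and in 1 WT liver. Without WT library 3 the log2 fold change of Psat1 was -0.86 (adjusted p = 0.554). With no filter on low counts 6 of the 10 genes were called, beside 9.64% of all genes, adding Trib3 (higher, adjusted p = 0.0179), Psat1 (lower, 0.000311) and Phgdh (lower, 0.0205).

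Trib3, Sesn2 and Chac1 were each highest, among KO livers, in library 1. Trib3 read 30.5, 3.77 and 1.99 CPM in KO livers against 4.19, 3.91 and 6.43 CPM in WT livers. Sesn2 read 24.6, 2.31 and 3.32 CPM in KO livers against 7.62, 6.40 and 6.43 CPM in WT livers. For both genes the other 2 KO livers lay below all WT livers. Chac1 read 9.59, 0.00 and 1.55 CPM in KO livers against 0.00, 7.65 and 11.3 CPM in WT livers, where a count of 0 allows up to 0.629 CPM in KO library 2 and 0.572 CPM in WT library 1. None passed (log2 fold changes 1.34 for Trib3, 0.60 for Sesn2 and -0.71 for Chac1). Without KO library 1 the log2 fold change of Trib3 was -0.73 (edgeR adjusted p = 0.253). Without KO library 1, Sesn2 was lower in KO livers (log2 fold change -1.26, edgeR adjusted p = 0.0329), so the direction for both genes rests on this library.

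KO library 1 at 4 weeks stood apart in other genes too. The stress factor gene Atf3 was 41.0 CPM there, against 2.31 and 3.77 CPM in the other KO livers and 0.804 to 2.31 CPM in WT livers. Its albumin level, 28094 CPM, was the lowest of the 4-week livers, where the others had 102746 CPM or more. Arntl, which encodes the clock factor BMAL1, was 47.6, 1.68 and 11.3 CPM in KO livers against 41.0, 5.16 and 3.05 CPM in WT livers, high in library 1 of both genotypes. The time of day of collection is not given in the sources used here. With library 1 of both genotypes left out, an alternative chosen after seeing the data, Atf4, Asns and Igfbp1 were still called higher, with log2 fold changes of 0.75, 2.50 and 2.88. In that fit Chac1 (-3.59), Psat1 (-2.27) and Sesn2 (-1.17) were called lower, so 6 of the 9 genes passed, 3 in each direction, beside 23.5% of all genes called in that fit.

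Markers of several other cells moved at 4 weeks as well. Lower in KO livers were 4 of 5 erythroid markers tested, 3 of 12 macrophage markers, 3 of 10 endothelial markers and 2 of 9 stellate cell markers. Beside these, 5.60% of all genes were called lower and 5.17% higher. Marco of macrophages, Dcn of stellate cells and Cps1 of hepatocytes were higher. The erythroid markers summed to 162 to 216 CPM in KO livers and 358 to 504 CPM in WT livers, and the macrophage markers to 530.3 to 769 CPM in KO livers and 835 to 1008 CPM in WT livers. The endothelial markers summed to 232 to 318 CPM in KO livers and 359 to 431 CPM in WT livers, while the stellate sums overlapped. Cholangiocyte markers summed to 19.0 to 33.3 CPM in KO livers and 42.9 to 53.2 CPM in WT livers. Lymphocyte markers summed to 3.14 to 9.30 CPM in KO livers and 10.5 to 16.4 CPM in WT livers. Only 2 cholangiocyte markers and 1 lymphocyte marker were tested, and none passed in edgeR. The 2 cholangiocyte markers had an unadjusted p under 0.05, beside 29.1% of all genes. DESeq2 called 1 cholangiocyte marker, Spp1, beside 11.5% of all genes. The part of these cell types in the result for the ATF4 genes was not tested.

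At 8 weeks none of the 10 genes was called. The count of 0 among 9 tested (edgeR) stands beside 2 genes at an unadjusted p under 0.05 and 0 by DESeq2, and only 0.0275% of the 14522 genes tested at this age were called in either direction. The 2 genes were Igfbp1 and Atf5, and 10.4% of all genes reached that unadjusted level. Atf4 was lowest at 46.4, in the middle at 61.7 and highest at 156 CPM in the 6 KO livers, against 44.0, 52.1, 47.0 and 58.3 CPM in the 4 WT livers (log2 fold change 0.60, SE 0.31). The ranges overlapped, and KO library 1 alone was above 77.0 CPM. Without that library the log2 fold change was 0.26.

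Igfbp1 spread over a 382-fold range in the KO livers at 8 weeks, with a lowest value of 20.5, a median of 625 and a highest value of 7824 CPM, against 57.9, 68.3, 65.3 and 264 CPM in WT livers. In 4 KO livers it was above all WT livers, and in 2 it was below all of them. The log2 fold change was 4.02 (SE 1.52, edgeR adjusted p = 0.474). The Asns estimate had the other sign, without passing. Its lowest, median and highest values were 2.73, 6.90 and 31.0 CPM in KO livers, against 34.1, 13.3, 8.74 and 16.4 CPM in WT livers. The ranges overlapped (log2 fold change -0.83, SE 0.67, edgeR adjusted p = 0.61), and without WT library 1 the log2 fold change was -0.30.

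Sesn2 was 27.2 and 23.6 CPM in KO libraries 1 and 2 at 8 weeks, 6.26 to 10.1 CPM in the other KO livers and 7.76 to 10.2 CPM in WT livers. Atf5 was 90.0 to 163 CPM in KO livers and 66.7 to 93.7 CPM in WT livers, an overlap of 1 KO liver with 1 WT liver (log2 fold change 0.62, SE 0.18, edgeR adjusted p = 0.474). Ddit3 barely varied at this age, from 2.90 to 4.53 CPM in KO livers and from 3.14 to 3.98 CPM in WT livers. Trib3, Chac1 and Psat1 had overlapping ranges and log2 fold changes between -0.52 and 0.35, and Phgdh was at most 0.375 CPM in any 8-week liver.

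The KO livers at 8 weeks with Igfbp1 above all WT livers (libraries 1, 2, 5 and 6) and those with Igfbp1 below all of them (libraries 3 and 4) also differed in other genes. Mup20, a major urinary protein made by hepatocytes, was 4.16 to 68.8 CPM in the first 4 and 3323 and 3514 CPM in the other 2 KO livers, against 1007 to 2249.6 CPM in WT livers. Albumin was 114467 to 147074 CPM in the first 4 and 46192 and 57935 CPM in the other 2 KO livers, against 51638 to 62735 CPM in WT livers. The macrophage markers summed to 856 to 1067 CPM in the first 4 and to 449 and 450.4 CPM in the other 2 KO livers, against 469 to 669 CPM in WT livers. The part of any of these in the Igfbp1 values was not tested.

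KO libraries 1 and 2 at 8 weeks, the highest for Igfbp1 and Sesn2, were also those with high Arntl. It was 45.0 and 43.5 CPM there, 1.76 to 4.75 CPM in the other KO livers and 1.38 to 2.54 CPM in WT livers. The p53 target Cdkn1a was 298 and 78.0 CPM in these libraries, 1.18 to 10.4 CPM in the other KO livers and 2.70 to 8.35 CPM in WT livers. With both left out, an alternative chosen after seeing the data, the log2 fold change was 1.57 for Igfbp1, 0.19 for Atf4, -0.22 for Sesn2 and -1.90 for Asns, and again none passed. At 4 weeks KO library 1, with 47.6 CPM of Arntl, had 8239.9 CPM of Igfbp1, the highest value of the series, and WT library 1, with 41.0 CPM of Arntl, had 344 CPM of Igfbp1. The part of collection time in these values was not tested.

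**Figure D3:**
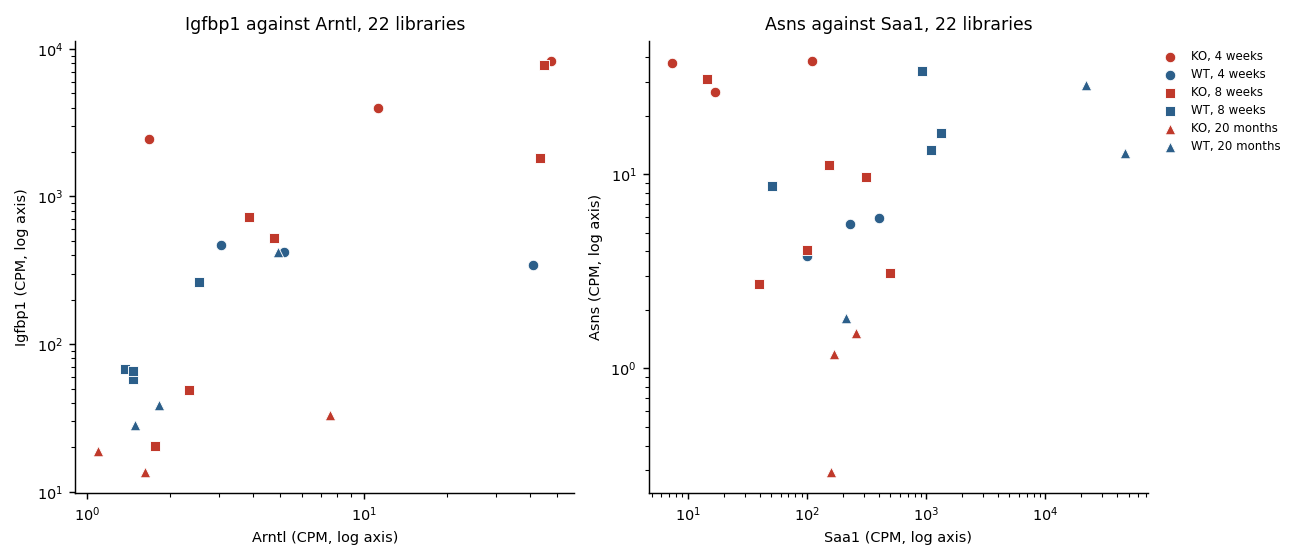
Left, Igfbp1 against Arntl, and right, Asns against Saa1, in CPM on log axes, 1 point per library, with KO in red and WT in blue and the age given by the marker shape. The libraries with Arntl above 40 CPM include 3 KO livers with Igfbp1 of 1823 CPM or more and 1 WT liver at 344 CPM. The 2 WT livers at 20 months with Saa1 above 20000 CPM have Asns of 12.9 and 28.8 CPM.

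At 20 months none of the 10 genes was called by edgeR, as was none of the 13966 genes tested (0.00%). At an unadjusted p under 0.05 the count was 3 of 9 genes, Asns, Trib3 and Igfbp1, beside 5.53% of all genes. DESeq2 called 1 of the 10, Asns, beside 53 of 14146 genes. Asns read 1.52, 1.18 and 0.292 CPM in KO livers, the lowest values of the series, against 12.9, 28.8 and 1.82 CPM in WT livers. The groups did not overlap, with KO lower, as was the case for 4.83% of all genes, but WT library 3 lay close to the KO livers. The log2 fold change was -3.86 (SE 1.01, edgeR adjusted p = 0.821, DESeq2 adjusted p = 0.00402), and without WT library 3 it was -4.38 with an edgeR adjusted p of 0.0465. The fit without that library called 71 of 14682 genes and kept only the WT livers with high Asns.

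Igfbp1 was 33.3, 18.9 and 13.6 CPM in KO livers at 20 months, against 419.8, 39.0 and 28.3 CPM in WT livers. WT library 1 stood far above the others, and the highest KO liver lay above the lowest WT liver. The log2 fold change was -2.90 (SE 1.06), and -0.61 without WT library 1. Psat1 and Phgdh were also highest in WT library 1. Psat1 was 1.17, 0.833 and 0.292 CPM in KO livers against 9.34, 1.68 and 0.552 CPM in WT livers, and Phgdh at most 0.132 CPM in KO livers against 2.15, 0.560 and 0.221 CPM in WT livers.

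The bZIP genes did not pass at 20 months. Atf4 read 127, 103 and 100.2 CPM in KO livers against 150.0, 126 and 128 CPM in WT livers, and these ranges overlapped. Ddit3 was 9.91 to 13.5 CPM in KO livers and 8.45 to 10.8 CPM in WT livers, and Atf5 was 223 to 320.1 CPM in KO livers and 182 to 232 CPM in WT livers. Trib3 read 7.37, 5.44 and 9.97 CPM in KO livers against 3.27, 4.84 and 5.52 CPM in WT livers, which just overlapped (log2 fold change 0.75, SE 0.31). Sesn2 and Chac1 overlapped between the genotypes.

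The same WT libraries carried an acute phase signal. Saa1, which encodes serum amyloid A, was 258, 168 and 158 CPM in KO livers at 20 months, against 46630.0, 22039.7 and 212 CPM in WT livers. The neutrophil markers summed to 7.67 to 18.9 CPM in KO livers, against 3868, 481 and 7.84 CPM in WT livers, with Ly6g at 0 in all 3 KO livers; the acute phase genes summed to 21286 to 23318 CPM in KO livers and 19999.9 to 183839 CPM in WT livers. WT libraries 1 and 2, high in these markers, were the 2 with high Asns. With both left out, an alternative chosen after seeing the data that leaves 1 WT liver assumed to vary like the KO livers, the log2 fold change of Asns was -0.87 and that of Igfbp1 was -0.37.

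A single fit of the 22 libraries compared the KO effect between the ages. Asns was the only 1 of the 10 genes that passed the joint test (edgeR adjusted p = 0.0356), as did 1.62% of the 15877 genes tested. The difference of its KO effects, 20 months minus 4 weeks, was -6.60 on the log2 scale (SE 1.32, edgeR adjusted p = 0.0116), beside 4.52% of all genes called for this pair of ages. Igfbp1 had a difference of similar size, -6.46 (SE 2.04), that did not pass (adjusted p = 0.0679, and 0.101 in the joint test). The Atf4 difference was -1.29 (SE 0.46, adjusted p = 0.0981). None of the 10 passed between 8 and 4 weeks, where 0.328% of all genes did and 3 of the 10 had an unadjusted p under 0.05, beside 14.1% of all genes. None passed between 20 months and 8 weeks, where no gene of the 15877 did (0.00%), with 5 of the 10 at an unadjusted p under 0.05, beside 11.3% of all genes. The Asns result was sensitive to single libraries: the joint adjusted p exceeded the threshold in 13 of the 22 fits that left out 1 library, reaching 0.104 without WT library 3 of 4 weeks.

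Several of the genes differed with age within a genotype, in comparisons that share the 8-week libraries. The ages differ in more than age: the 4-week libraries are paired-end and the others single-end, and the 8-week libraries carry another date tag than the rest, so age cannot be told apart from these. In WT livers 6 of the 9 genes tested were called between 8 and 4 weeks, beside 53.2% of all genes (27.5% higher and 25.7% lower at 8 weeks). Asns was higher at 8 weeks (log2 fold change 1.86, SE 0.49, edgeR adjusted p = 0.00961), and Atf4 (-0.65), Ddit3 (-1.68), Psat1 (-2.94), Igfbp1 (-1.84) and Atf5 (-2.18) were lower. The Psat1 groups overlapped, and without WT library 3 of 4 weeks its log2 fold change was -1.65 and the call was lost (adjusted p = 0.0509). In KO livers 3 of 9 were called for the same ages, beside 37.7% of all genes, 18.8% being lower: Atf4 (-1.11), Ddit3 (-1.53) and Atf5 (-1.20) were lower at 8 weeks. The Atf4 groups overlapped, and its call was lost without KO library 1 of 4 weeks (-0.87, adjusted p = 0.133), without KO library 3 of 4 weeks (adjusted p = 0.0681) and without KO library 2, 3, 5 or 6 of 8 weeks (0.052 to 0.0604). Asns did not pass there (-1.76, adjusted p = 0.0612), although it did without KO library 1 of 8 weeks (-2.49, adjusted p = 0.0025).

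Between 20 months and 8 weeks, Ddit3 and Atf5 were higher at 20 months in both genotypes. The log2 fold changes were 1.70 in KO livers and 1.36 in WT livers for Ddit3, and 1.08 in KO livers and 1.30 in WT livers for Atf5. In WT livers Atf4 was the third called (1.38), so 3 of 9 passed, all higher, beside 54.5% of all genes (27.7% higher). In KO livers the other calls were lower at 20 months, Asns (-3.36, SE 0.94, edgeR adjusted p = 0.0151) and Igfbp1 (-6.38, SE 1.94, adjusted p = 0.0217), so 4 of 9 passed beside 45.8% of all genes (23.4% higher and 22.4% lower). The Igfbp1 call was lost without any 1 of the 3 KO libraries of 20 months, and the Asns call without KO library 3.

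A further 7 lists held 101 genes of the pathway around ATF4, of which 84 were tested at 4 weeks. Of these 8 were called higher and 3 lower in KO livers, beside 5.17% higher and 5.60% lower of all genes (10.8% in either direction). The median log2 fold change was 0.16 against 0.01 over all genes. At an unadjusted p under 0.05 the count was 32 of 84, beside 29.1% of all genes. DESeq2 called 17 genes of the lists, of which 99 were matched, beside 11.5% of all genes. Upstream, 1 of 8 genes for eIF2alpha, its kinases and phosphatase subunits passed. Eif2s1, which encodes eIF2alpha itself, averaged 148 ± 13.2 CPM in KO livers and 74.4 ± 4.59 CPM in WT livers (SD, n = 3 each). No kinase or phosphatase subunit gene of this list passed. Ppp1r15a, the stress-induced phosphatase subunit GADD34, averaged 13.8 ± 5.26 CPM in KO livers and 12.2 ± 1.21 CPM in WT livers and did not pass. Among bZIP partners and stress factors 1 of 11 passed, Cebpd (33.7 ± 8.72 CPM in KO livers, 14.6 ± 1.96 CPM in WT livers).

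Some enzymes of amino acid metabolism were called at 4 weeks, in both directions, beside 5.17% of all genes called higher and 5.60% lower. Of 10 genes for proline, asparagine and sulfur amino acids 2 were higher and 2 lower. Cth, the cystathionine gamma-lyase of transsulfuration, averaged 1728 ± 529 CPM in KO livers and 413 ± 166 CPM in WT livers (log2 fold change 2.07, edgeR adjusted p = 0.0125). Got1, cytosolic aspartate aminotransferase, averaged 2534 ± 1058 CPM in KO livers and 525 ± 219.6 CPM in WT livers (2.27, adjusted p = 0.0163). Lower were Glul, glutamine synthetase (-1.16), and Gclc, the catalytic subunit for glutathione synthesis (-1.45). Of 10 serine, glycine and one-carbon genes only Aldh1l1, which oxidises formyl-tetrahydrofolate, passed, and it was higher (0.95). Mthfd2, a mitochondrial folate enzyme often used as an ATF4 marker, was below the filter at 4 weeks and averaged 1.20 ± 0.0780 CPM in KO livers and 2.72 ± 1.54 CPM in WT livers.

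Of 13 amino acid transporter genes Slc43a1, a transporter of large neutral amino acids, was higher (2.19) and Slc6a9, the glycine transporter GLYT1, was lower (-3.02). Of 21 genes for tRNA synthetases and tRNA export Eprs (0.69) and Lars (0.71) were higher and none was lower. Beside both lists, 10.8% of all genes were called in either direction. None of 11 genes for secreted and metabolic stress signals passed in edgeR, with 2 at an unadjusted p under 0.05 and 0 by DESeq2. Fgf21, a liver hormone induced by ATF4, averaged 5.32 ± 5.82 CPM in KO livers and 4.38 ± 2.32 CPM in WT livers.

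Neighbouring programmes were described in the same way at 4 weeks, beside 5.17% of all genes called higher and 5.60% lower by edgeR. An unadjusted p under 0.05 was reached by 29.1% of all genes, and DESeq2 called 11.5%. None of 19 genes of the endoplasmic reticulum stress arms outside ATF4 passed in edgeR, with 2 at an unadjusted p under 0.05 and 1 by DESeq2 (Creld2, lower), and the chaperone Hspa5 averaged 1205 ± 276 CPM in KO livers and 985 ± 356 CPM in WT livers. Of 17 insulin and fasting genes 2 were higher and 1 was lower. The higher ones were Ppargc1a (1.60), a coactivator of fasting metabolism, and Pdk4 (2.74), a kinase that inhibits pyruvate dehydrogenase. Of 17 acute phase genes Stat3 (1.13) and Itih3 (1.09) were higher and Saa3 (-3.88) and Orm1 (-0.91) lower. Of 10 p53 targets Btg2 was higher (3.13) and Bax lower (-0.95). None of 13 clock genes passed in edgeR, with 1 at an unadjusted p under 0.05 and 0 by DESeq2.

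**Figure D4:**
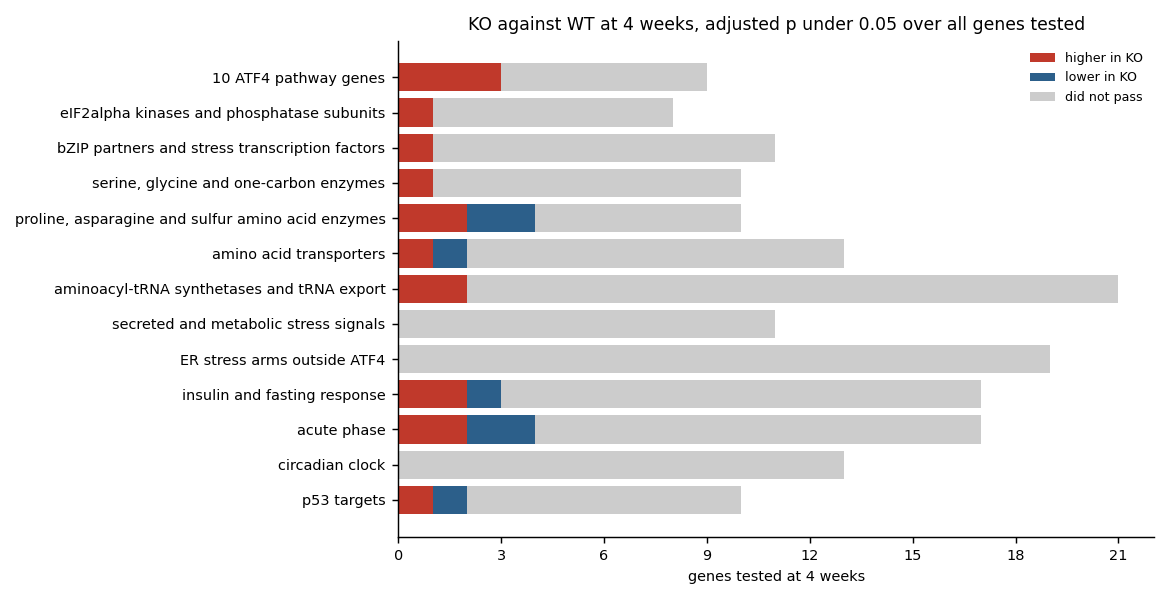
Number of genes tested at 4 weeks in each list, divided into those higher in KO livers (red), lower in KO livers (blue) and not passing (grey). The 10 ATF4 pathway genes had 3 higher of 9 tested, and the enzymes for proline, asparagine and sulfur amino acids had 2 higher and 2 lower of 10.

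At the later ages no gene of the 7 pathway lists was called by edgeR. At 8 weeks 93 were tested, with 12 at an unadjusted p under 0.05 and 1 by DESeq2, Gdf15, a stress-induced secreted factor (2.17 ± 1.00 CPM in 6 KO livers, 0.618 ± 0.354 CPM in 4 WT livers, SD). Slc7a1, an arginine and lysine transporter, was higher in every KO liver than in any WT liver at 8 weeks, as were 1.27% of all genes, without passing (log2 fold change 1.88, SE 0.62). At 20 months 92 were tested, with 4 at an unadjusted p under 0.05 and 0 by DESeq2. Mthfd1l, a mitochondrial folate enzyme, averaged 0.850 ± 0.518 CPM in KO livers and 3.60 ± 2.43 CPM in WT livers at that age (log2 fold change -2.09, SE 0.63).

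The 10 genes did not move as 1 block from liver to liver. Correlations were taken over the 22 libraries on log2 CPM minus the group mean, for all 45 pairs, with 2-sided permutation tests within groups (100000 permutations) adjusted over the 45 pairs. No pair passed for Pearson's r, 7 had an unadjusted p under 0.05, and 1 passed for Spearman's rho. The highest r was 0.80 between Psat1 and Phgdh, successive enzymes of serine synthesis (permutation p = 0.00118, adjusted p = 0.0531; rho 0.71, permutation p = 0.00483, adjusted p = 0.0763). It was 0.74 without the 2 libraries farthest from the median of Psat1, and 0.89, 0.47 and 0.96 within 4 weeks, 8 weeks and 20 months. Phgdh had no count in 5 of the 22 libraries and was at most 2.15 CPM, so these values rest in part on libraries with few or no Phgdh counts. The pair that passed by rank was Asns and Psat1 (rho 0.69, permutation p = 0.00045, adjusted p = 0.0202; r 0.59, permutation p = 0.00775, adjusted p = 0.116). Its r was 0.49 without the 2 farthest libraries, and 0.74, 0.86 and 0.66 within the 3 ages.

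Atf4 and Asns, both higher in KO livers at 4 weeks, had an r of 0.45 within groups (permutation p = 0.0742, adjusted p = 0.358; rho 0.27, permutation p = 0.29, adjusted p = 0.593), which dropped to 0.10 without the 2 farthest libraries and so rests on them. Sesn2 and Igfbp1 had an r of 0.62 (permutation p = 0.00328, adjusted p = 0.0738; rho 0.61, permutation p = 0.0119, adjusted p = 0.134), 0.59 without the 2 farthest libraries, and 0.91, 0.84 and 0.51 within the 3 ages. The lowest r was -0.69 between Chac1 and Atf5 (permutation p = 0.0301, adjusted p = 0.226; rho -0.70, permutation p = 0.00509, adjusted p = 0.0763), -0.61 without the 2 farthest libraries. Chac1 had no count in WT library 1 and KO library 2 of 4 weeks, which had the highest Atf5 of their groups (495 and 329 CPM).

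**Figure D5:**
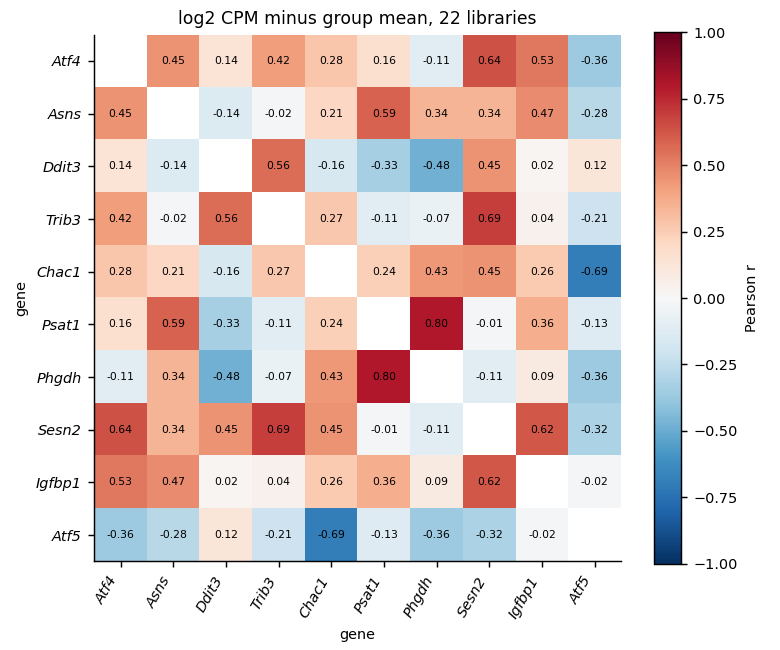
Pearson r of log2 CPM minus the group mean for every pair of the 10 genes over 22 libraries; red is positive and blue negative. The highest value is 0.80 for Psat1 and Phgdh and the lowest -0.69 for Chac1 and Atf5, and 27 of the 45 pairs are positive.

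For each gene the 3 genes with the most similar within-group pattern were listed by Pearson r over the 22 libraries among 7928 genes searched, as a description. For Sesn2 these were Sdc4 (r 0.97), Sesn1 (0.94) and Ccng2 (0.93), and for Igfbp1 Gata6 (0.95), Cd93 (0.94) and Skil (0.94). For Atf4 they were Kin (0.92), Dyrk1a (0.90) and Yrdc (0.90), and for Asns Tff3 (0.85), Slc3a1 (0.78) and Clca3a1 (0.76). For Chac1 they were Ulk1 (0.91), Meaf6 (0.89) and Efhd2 (0.88), and for Ddit3 Arhgef5 (0.84), Fam193a (0.82) and Dpf2 (0.82). For Trib3 they were Adcy9 (0.86), Ankrd50 (0.83) and Setd6 (0.82), and for Atf5 Fpgs (0.82), Lipa (0.78) and Zfp62 (0.73). For Psat1 they were Arpc1b (0.80), Qrich1 (0.78) and Tsc22d4 (0.78), and those named for Phgdh are Galc (0.72) and Qrich1 (0.72).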

How the data were processed

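Poly(A) RNA of 22 liver samples in 6 groups, given by the genotype and age in the labels, was used. The authors deposited unnormalised read counts for each Ensembl gene, made with HISAT2 2.0.4 and HTSeq 0.6.1p1 on GRCm38, per the submitters' processing notes. Annotation release and strand setting are not given in the sources used here. The 4-week libraries are paired-end and the others single-end, per the file names. Each table has 47729 gene lines and 5 summary lines (unaligned and multiply aligned reads at 0 in all). Reads outside genes were 6.132% to 17.78% of those recorded and ambiguous reads 3.798% to 7.297%. These lines stayed out of library sizes and tests. Symbols and positions came from GENCODE M21 for 47224 genes.

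From the counts, edgeR 4.0.16 in R 4.3.3 was run with filterByExpr, TMM, and the 2-sided quasi-likelihood F-test, with Benjamini-Hochberg adjustment over all genes tested and a threshold of 0.05. KO and WT were compared in a fit of each age, ages in a fit of the 2 groups, and the difference of the KO effect among ages in 1 fit of 22 libraries. Each SE was taken as the absolute log2 fold change over the square root of F. CPM uses TMM factors of the 22 libraries, and log2 CPM a prior count of 2. DESeq2 1.42.0, RLE size factors, no filter, 1 fit of all libraries, a replicate block and each library left out were alternatives. On simulated counts of the 4-week design 85.3% of 4-fold and 13.2% of 2-fold changes were recovered, of the 8-week design 90.6% and 42.2%, and of the 20-month design 55.2% and 1.85%. The simulated counts varied independently in each gene and library. They lacked the sets of unlike KO livers seen at 8 weeks, where Igfbp1 did not pass at a log2 fold change of 4.02. These shares therefore do not give the recovery to be had from the real libraries. The closest libraries of 1 group differed by a chi-square of 8.34 per degree of freedom, so none was treated as a repeat.

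The genes, the gene lists (301 symbols, 3 unmatched) and the tests were chosen with earlier results of these data known. The genes named are the 10 in every comparison, from each list at most 4 members past the threshold by smallest adjusted p and at most 2 that did not pass, and for each of the 10 the 3 genes with the highest r. Marker genes of other cells and genes that stand apart in a library were named after their values were seen. Of the genes this rule gives, 2 are not reported here.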

Additional observations from a re-analysis of the deposited data

Results flagged for a closer look

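Among 20 groups of 4 or 6 livers examined over the 10 genes, 5 had a liver standing far from its group. The rule took the gap to the nearest liver as a share of the range in CPM, not in log2 CPM. A chance rate of about 1 in 20 for a single group holds for normally distributed values and was not checked for CPM. These are also 10 genes in the same 2 groups of livers, and 3 of the 5 are 1 library, so they are not independent. In KO livers at 8 weeks, library 1 was above the other 5 for Atf4 (156 CPM, next highest 77.0), for Asns (31.0 CPM, next highest 11.2) and for Igfbp1 (7824 CPM, next highest 1823). The same library had 45.0 CPM of Arntl, and the part of this in the 3 values was not tested. In WT livers at 8 weeks, library 4 was above the other 3 for Igfbp1 (264 CPM, next highest 68.3) and library 1 was above the other 3 for Psat1 (2.15 CPM, next highest 0.884).

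The KO effect on Asns differed among the 3 ages (edgeR adjusted p = 0.0356 for the joint test of the 22 libraries). Between 20 months and 4 weeks the difference of its log2 fold changes was -6.60 (edgeR adjusted p = 0.0116). At 4 weeks Asns was higher in all 3 KO livers than in any WT liver, and at 20 months lower in all 3. The libraries of 4 weeks are paired-end and those of 20 months single-end, and at 20 months the 2 WT livers with high Asns had Saa1 of 46630.0 and 22039.7 CPM, against 212 CPM in the third. The part of either in the difference was not tested.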

How the results depend on the processing

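Of the 10 genes, 3 were called at 4 weeks. RLE size factors and DESeq2 also gave 3. With no filter on low counts the number was 6, in 1 fit of all 22 libraries 0, with library 1 of both genotypes left out 6 (chosen after seeing the data), and 2 to 4 over the fits without 1 library. Shares of all genes called at 4 weeks were 10.8% in the main fit and with RLE size factors, and 11.5% by DESeq2. They were 9.64% with no filter, 11.1% in 1 fit of all 22 libraries and 23.5% with library 1 of both genotypes left out. Over the fits without 1 library they ran from 1.61% to 17.6%. Direction changed where called for Sesn2 at 4 weeks, which ran from -1.26 (without KO library 1) to 1.07 over the fits without 1 library and was -1.17 without library 1 of both genotypes, and for Igfbp1 in WT livers between 20 months and 8 weeks, which ran from -1.82 (without WT library 1 of 20 months, adjusted p = 0.0495) to 1.31. At 8 weeks every alternative gave 0. At 20 months DESeq2 gave 1, beside 53 of 14146 genes, and the fits without 1 library gave 0 to 1. Between ages the fits without 1 library gave 5 to 9 calls in WT livers and 2 to 4 in KO livers for 8 against 4 weeks, and 3 to 5 in WT livers and 2 to 5 in KO livers for 20 months against 8 weeks. In the main fits 53.2%, 37.7%, 54.5% and 45.8% of all genes were called, in the same order. The shares of all genes in those fits without 1 library are not given here. For the difference of the KO effect among ages DESeq2 gave 2, adding Igfbp1 (adjusted p = 0.0249), and the fits without 1 library 0 to 2. The cause of these changes was not tested. Among 1013 pairs of a gene and an alternative, 46 changed sign with neither value called.

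With the replicate number as a block the number called at 4 weeks was 2, beside 4.82% of all genes, with Atf4 at an edgeR adjusted p of 0.0702. The number was 0 at 8 weeks and 20 months and 1 for the difference among ages. Same-numbered KO and WT livers correlated at -0.07, 0.01 and 0.01 at 4 weeks, from -0.33 to 0.07 at 8 weeks, and at 0.44, 0.03 and 0.46 at 20 months. At no age did every pair exceed 0.1, so the numbers were not taken to pair the samples, although 2 pairs at 20 months did exceed it. Depth was lowest at 4 weeks, where Phgdh had 1 count over the KO livers and was below the filter.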

Other observations

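Some genes of the response that are not among the 10 also moved by single livers. Gdf15 was 19.2, 1.26 and 2.88 CPM in KO livers at 4 weeks, against 3.24, 0.534 and 3.05 CPM in WT livers. Fgf21 was 0.00, 11.5 and 4.43 CPM in KO livers at 4 weeks, against 7.05, 3.20 and 2.89 CPM in WT livers, so the KO liver with the highest Atf4, Trib3 and Sesn2 was the 1 in which Fgf21 was not detected (a count of 0 allows up to 0.523 CPM there). Mthfd2 was 2.82, 1.67 and 1.04 CPM in KO livers at 20 months, against 6.07, 2.95 and 1.32 CPM in WT livers, highest in the WT liver with the highest Psat1 and Phgdh. At 20 months Fgf21 was 1.18 to 1.82 CPM in KO livers, against 0.647, 0.153 and 0.828 CPM in WT livers, and did not pass (log2 fold change 1.46, SE 0.56, edgeR adjusted p = 0.821). The gluconeogenic gene G6pc was 1421 CPM in KO library 1 at 8 weeks, the KO liver of that age with the highest Igfbp1, 185 to 777 CPM in the other KO livers and 284 to 431 CPM in WT livers.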
